A study of Mus musculus with 4 samples.

Results

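Axon guidance ligands and receptors were examined in RNA-seq of CD31-sorted brain endothelial cells (brain ECs) from the cerebral cortex of *Foxq1* cKO and wild-type mouse embryos. The genes were taken by symbol and not by their values: class 3 to 7 semaphorins, plexins, Eph receptors, ephrins, Robo receptors, Slits, netrins and Unc5 receptors. The arteriovenous genes *Sema3g*, *Efnb2* and *Ephb4* were left out by the same rule. Of 12693 gene symbols in the table, 41 met it. A mouse annotation (GENCODE M21, GRCm38) holds 63 protein-coding genes of these families, and the other 22 are not analysed here.

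There were 2 samples per genotype, all C57BL/6 at embryonic day 18, a stage at which cortical vessels are still growing. The knockout samples carry the genotype FOXQ1fl/fl;Tie2-Cre, in which Cre expressed from the *Tie2* promoter removes the floxed *Foxq1* gene from endothelial cells, and *Tie2* is known to be active in blood lineages as well. The controls are labelled WT, and the methods describe controls as Cre-negative littermates, so the labels do not tell whether the controls carried floxed alleles. The labels name brain as the tissue, while the methods describe cortical cells sorted with an antibody to CD31, a surface protein of endothelial cells, and Smart-seq2, which makes whole-transcript cDNA libraries from small amounts of RNA. Neither source says whether embryos were pooled or whether samples came from separate embryos, so the p-values measure the spread between these samples only.

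Guidance genes encode secreted or membrane-bound cues and the receptors that read them. Semaphorins signal through plexins, with neuropilins as co-receptors for most class 3 members; ephrins signal through Eph receptor tyrosine kinases at contacts between cells; Slits bind Robo receptors; and netrins bind Dcc, neogenin and Unc5 receptors. They were first described in growing axons, and many also steer endothelial sprouts. *Robo4*, *Plxnd1* and *Unc5b* are the members best known from endothelial cells.

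The listed genes held between 15827166 and 21466436 reads per sample. Values are normalized counts, that is, reads divided by 1 size factor per sample. *Foxq1* had 353 and 297 normalized counts in wild-type brain ECs against 5.44 and 32.6 in *Foxq1* cKO brain ECs, 5.84% of the wild-type mean, though 66.1% of its exon length overlaps another gene on the opposite strand. All 12 endothelial markers were present, and their summed level was 390041 to 415612 in wild-type and 343439 to 388806 in *Foxq1* cKO samples. The sorted cells also held transcripts of other cells. The pericyte gene *Rgs5* had 89164 to 93044 normalized counts, and 7 of 10 pericyte and smooth muscle markers summed to 135896 to 139394 in wild-type and 131178 to 142504 in *Foxq1* cKO samples. Neuron markers (11 of 16 present) summed to 5943 to 6923 and 4475 to 6305, with overlapping groups. All listed genes have 1 read or more in each sample, so no present marker could be at 0. The other markers of these lists are not analysed here. Many guidance genes are also used by neurons and pericytes, and in these bulk samples fewer cells of a type cannot be told apart from less RNA per cell.

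Levels were compared between genes as normalized counts per kb of annotated exons. *Robo4* stood highest, at 2336 and 2801 per kb in wild-type against 2911 and 2351 per kb in *Foxq1* cKO brain ECs. *Sema6a*, a transmembrane semaphorin that binds A-type plexins, came next with 1203 and 1478 per kb in wild-type against 992 and 1170 per kb in *Foxq1* cKO brain ECs, so its range did not meet that of *Robo4*. *Efna1*, the ephrin-A known for its presence on endothelium (629 to 964 per kb over the 4 samples), *Sema6d* (586 to 902) and *Plxnd1* (525 to 855) followed, and their ranges overlapped one another. These 5 genes made up 76.3% to 78.4% of the summed per-kb level of the 41 members in each sample, and *Robo4* alone 30.1% to 38.0%.

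A second tier held *Plxnb2* (180.4 to 267 per kb), the GPI-anchored semaphorin *Sema7a* (179 to 248) and the netrin receptor *Unc5b* (136 to 325), which did not differ beyond their spread. The remaining 33 members had means between 3.34 and 101.5 per kb. The lowest were *Ephb2* (mean 3.34 per kb), *Ntn3* (4.60), *Sema4g* (5.79), *Slit3* (8.05) and *Sema4b* (9.02). *Robo4* lay at percentile 98.0 of all genes with an annotated length, *Plxnb1* at percentile 49.2 and *Ephb2* at percentile 0.647. The plot of levels shows this order, with the samples of a gene lying close together in the upper rows and far apart in the lower ones.

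**Figure D1:**
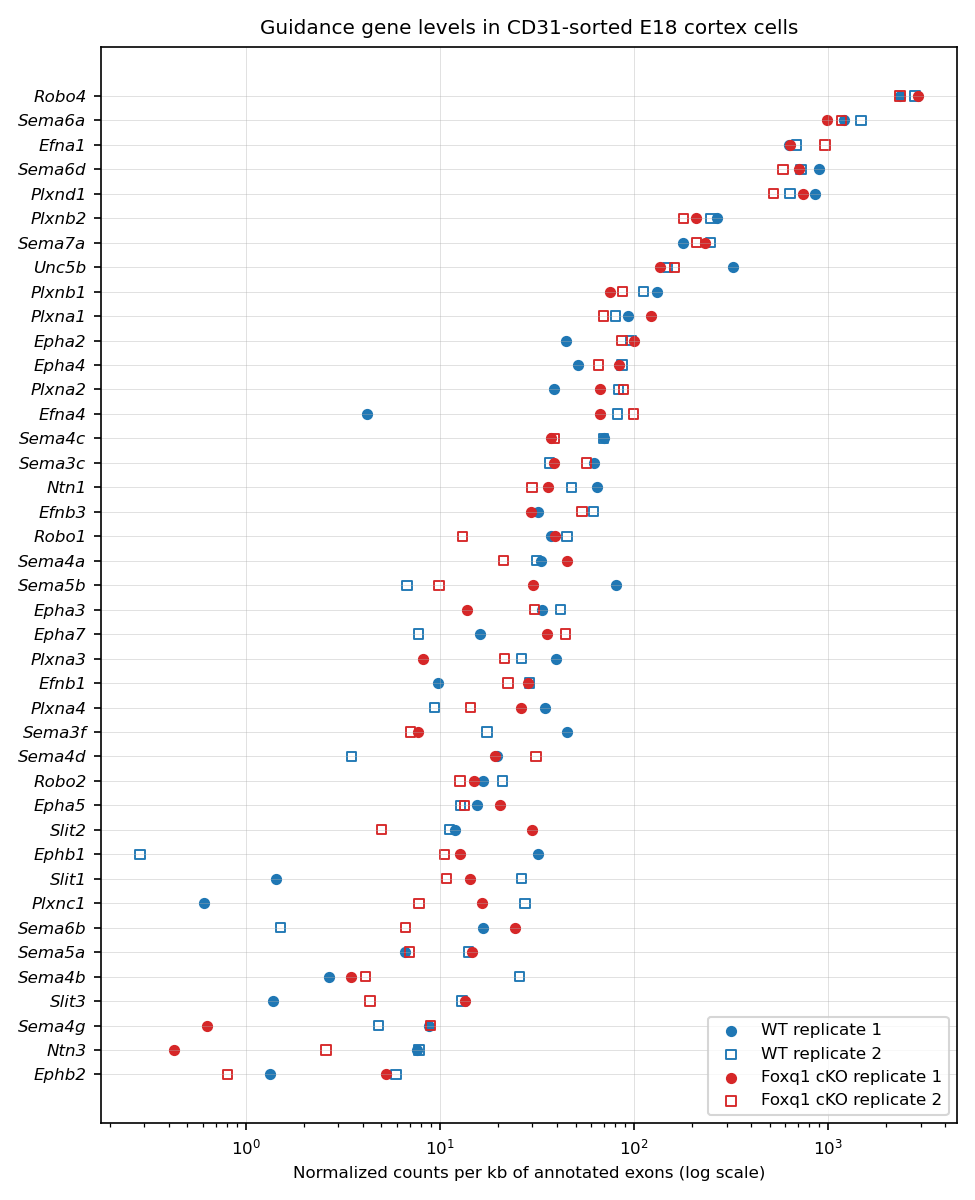
Level of each of the 41 guidance genes in each of the 4 samples, as normalized counts per kb of annotated exons on a log axis, sorted by mean. Blue marks wild-type and red *Foxq1* cKO samples, filled circles replicate 1 and open squares replicate 2; *Robo4* lies at 2336 to 2911 per kb, and the samples of low genes such as *Ephb1* spread from 0.285 to 32.0 per kb.

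Between genotypes, 1 of the 41 members, *Epha7*, had an unadjusted p under 0.05 in limma (2.44% of members), where 5.22% of the 12472 genes tested did. It was higher in *Foxq1* cKO brain ECs, as were 2.17% of all genes at that p, and no member was lower, against 3.05%. In edgeR its unadjusted p was 0.0340. No member had an adjusted p under 0.05 (Benjamini-Hochberg over all genes tested), and 0% of all genes did. The smallest adjusted p of a member was 0.857. The deleted gene *Foxq1* itself, with a log2 fold change of -4.47, had an adjusted p of 0.857 in limma and 0.00925 in DESeq2. An adjusted p over 0.05 in limma therefore does not show that a gene is unchanged. In DESeq2 on the recovered reads, *Epha7* was again the 1 member with an unadjusted p under 0.05, against 6.45% of all genes, with an adjusted p of 0.477, and 59 of all genes had an adjusted p under 0.05. The members under an unadjusted 0.05 in limma changed with the sample left out, as did the number over all genes tested. No member was under it both without wild-type 1 and without wild-type 2. The median log2 fold change was -0.02 over the members and 0.01 over all genes tested, and 21 members had a negative value (51.2%), as did 49.3% of all genes.

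In 11 members both *Foxq1* cKO samples were below both wild-type samples (26.8% of members, against 18% of all genes tested), and in 1 member, *Epha7*, both were above (2.44% against 18%). Without regard to direction the groups stood apart in 12 members, against 36.0% of all genes, and they overlapped in 29. The 11 were *Sema3f*, *Sema4c*, *Sema6a*, *Sema6d*, *Plxna3*, *Plxnb1*, *Plxnb2*, *Epha3*, *Robo2*, *Ntn1* and *Ntn3*. Of these, 6 are ligands (27.3% of the 22 ligand genes) and 5 are receptors (26.3% of the 19 receptor genes), nearly the same share. The summed levels of endothelial, neural progenitor (6 of 8 present), astrocyte and oligodendrocyte lineage (6 of 8) and microglia (10 of 10) markers were also lower in both *Foxq1* cKO samples, at 90.9%, 87.5%, 79.5% and 74.2% of the wild-type mean. This holds for the sums and not for every marker. Each list also held markers with a positive log2 fold change, such as *Cdh5*, *Fabp7*, *Aqp4* and *C1qc*. The summed ranges were 14394 to 14905 against 12585 to 13042 for neural progenitors, 9044 to 10886 against 7306 to 8547 for astrocytes and oligodendrocyte lineage, and 9784 to 11307 against 7314 to 8331 for microglia. Their part in the member values was not tested. For any gene taken alone, the smallest p of a two-sided exact permutation test with 2 samples against 2 is 0.333.

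**Figure D2:**
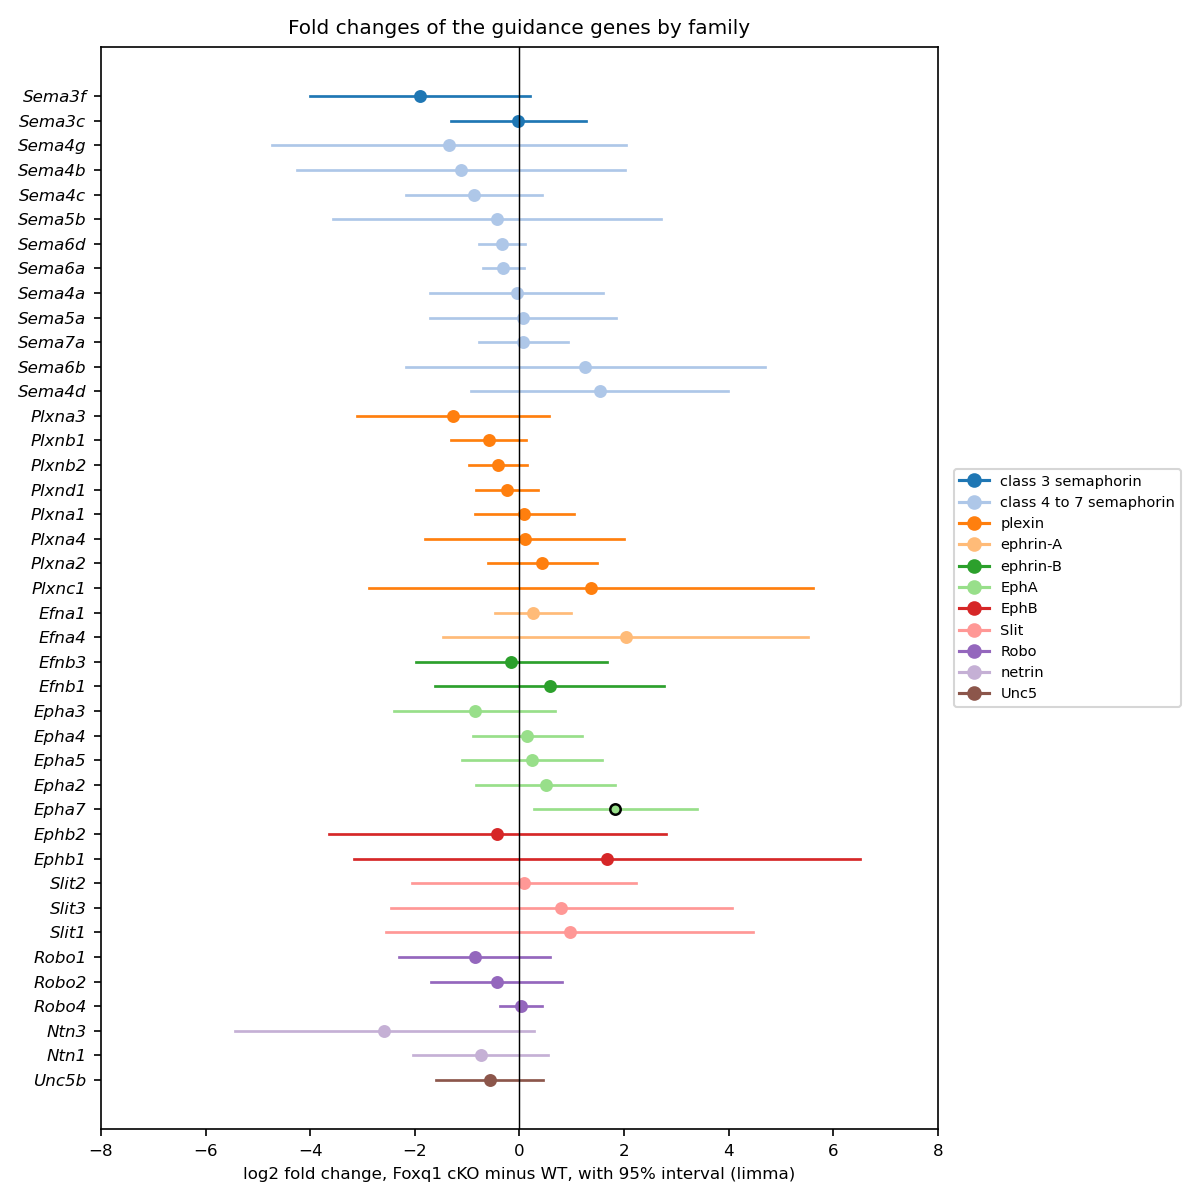
Log2 fold change of each guidance gene (*Foxq1* cKO minus wild-type, normalized counts plus 1) with its 95% interval from limma, colored by family. The interval of *Epha7*, ringed in black, runs from 0.27 to 3.39; those of the other 40 genes include 0, and they are narrowest for *Robo4*, *Sema6a* and *Sema6d*.

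Among the semaphorins, the ligands of plexins, none of 13 members had an unadjusted p under 0.05 in limma or in DESeq2. *Sema3f*, a secreted repellent that binds neuropilin 2, had 236 and 90.7 normalized counts in wild-type brain ECs against 40.3 and 36.6 in *Foxq1* cKO brain ECs. Both *Foxq1* cKO samples were low and close together, while the wild-type samples were 2.60-fold apart. The log2 fold change was -1.90 (standard error 0.86, unadjusted p = 0.0692 and adjusted p = 0.857 in limma). *Sema3c*, a secreted attractant of the same class, had 446 and 261 normalized counts in wild-type brain ECs against 277 and 408 in *Foxq1* cKO brain ECs. Its groups overlapped, with a log2 fold change of -0.02 and a 95% interval from -1.32 to 1.27.

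The membrane-bound semaphorins were led by *Sema6a* and *Sema6d*. *Sema6a* had 10564 and 12973 normalized counts in wild-type brain ECs against 8709 and 10267 in *Foxq1* cKO brain ECs. *Sema6d*, whose product binds *Plxna1*, had 9522 and 7653 against 7450 and 6186. In both genes the higher *Foxq1* cKO sample lay just below the lower wild-type sample, so the gap between groups was smaller than the distance between replicates. Their log2 fold changes were -0.31 (standard error 0.16) and -0.33 (standard error 0.18), with unadjusted p-values of 0.108 and 0.113 in limma. *Sema4c*, a ligand of *Plxnb2*, had 323 and 320.02 normalized counts in wild-type brain ECs against 171 and 179 in *Foxq1* cKO brain ECs. Its replicates agreed within 1.05-fold in each group, and *Foxq1* cKO stood at 54.4% of wild-type. The log2 fold change was -0.87 with a standard error of 0.53, which limma draws toward the spread of genes at a similar level, and the unadjusted p was 0.151. Without that dependence on level (no variance trend) it was 0.0348. Of the *Sema4c* exons, 7.27% overlap the listed noncoding gene *D430040D24Rik* on the opposite strand.

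Of the other membrane-bound semaphorins, *Sema7a* had 592 and 817 normalized counts in wild-type brain ECs against 769 and 692 in *Foxq1* cKO brain ECs, with a log2 fold change of 0.07 and a 95% interval from -0.78 to 0.92. *Sema4a* and *Sema5a*, the latter a semaphorin with thrombospondin repeats, had log2 fold changes of -0.06 and 0.06, and that of *Sema4a* was 0.04 in DESeq2. The others were far apart within wild-type or within *Foxq1* cKO cells. *Sema5b* had 569 and 47.9 normalized counts in wild-type brain ECs and *Sema4d*, the ligand of *Plxnb1*, 150.8 and 26.9. *Sema4b* had 15.2 and 146, *Sema6b* 66.6 and 5.98, and *Sema4g* 5.44 and 77.3 in the *Foxq1* cKO samples. Their log2 fold changes ran from -1.35 for *Sema4g* to 1.54 for *Sema4d*, and every one of these 5 intervals included 0.

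The plexins are single-pass receptors whose cytoplasmic part acts on Ras-family GTPases. Of 8 members, 3 were lower in both *Foxq1* cKO samples and none was higher in both, where 18% of all genes were in each case, and none had an unadjusted p under 0.05. *Plxnb1* had 1266 and 1074 normalized counts in wild-type brain ECs against 719 and 835 in *Foxq1* cKO brain ECs. *Plxnb2* had 2064 and 1929 against 1616 and 1393. In both B-type plexins the groups stood clear of each other, with *Foxq1* cKO at 66.4% of wild-type for *Plxnb1* and at 75.3% for *Plxnb2*. The log2 fold changes were -0.59 (standard error 0.29) and -0.41 (standard error 0.23), with unadjusted p-values of 0.0912 and 0.120 in limma.

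*Plxna3*, a co-receptor partner of neuropilins, had 311 and 207 normalized counts in wild-type brain ECs against 64.2 and 169.9 in *Foxq1* cKO brain ECs. The *Foxq1* cKO samples were 2.64-fold apart, giving a log2 fold change of -1.27 (standard error 0.75). *Plxnd1*, the receptor of *Sema3e* in developing vessels, had 6246 and 4641 against 5433 and 3836. Its groups overlapped, and the log2 fold change of -0.24 had a 95% interval from -0.83 to 0.35. The A-type plexins *Plxna1*, *Plxna2* and *Plxna4* had log2 fold changes of 0.09, 0.44 and 0.10, and that of *Plxna4* was -0.12 in DESeq2. *Plxnc1*, the receptor of *Sema7a*, had 5.06 and 229 normalized counts in wild-type brain ECs, so that its log2 fold change of 1.36 came with an interval from -2.88 to 5.60. It was -0.20 in DESeq2 and -1.26 without wild-type 1.

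Ligand and receptor levels can be set side by side for the B-type pairs. *Sema4c* and *Plxnb2* were both lower in both *Foxq1* cKO samples. *Plxnb1* was lower in both while its ligand *Sema4d* overlapped between groups.

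Eph receptors and ephrins signal in both directions at cell contacts. *Epha7* (ENSMUSG00000028289), a receptor for ephrin-A ligands known for its part in cortical patterning, had 158 and 76.8 normalized counts in wild-type brain ECs against 354 and 440.5 in *Foxq1* cKO brain ECs. These rest on 188 and 77 reads in wild-type against 325 and 433 reads in *Foxq1* cKO brain ECs. Both *Foxq1* cKO samples were more than 2-fold above the higher wild-type sample, and the *Foxq1* cKO mean of 397 ± 61.3 was 338% of the wild-type mean of 118 ± 57.7 (SD, n = 2 each). The log2 fold change was 1.83 (standard error 0.64, 95% interval 0.27 to 3.39, unadjusted p = 0.0283 and adjusted p = 0.857 in limma). It stayed positive with each sample left out, from 1.31 to 2.35, and its unadjusted p was then 0.00983 without wild-type 1, 0.0641 without wild-type 2, 0.0901 without *Foxq1* cKO 1 and 0.143 without *Foxq1* cKO 2.

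The other EphA receptors did not share this direction beyond their spread. *Epha3* had 291 and 364 normalized counts in wild-type brain ECs against 119.8 and 268 in *Foxq1* cKO brain ECs, a log2 fold change of -0.86 (standard error 0.63). *Epha2*, the receptor through which *Efna1* acts on endothelium, had 209 and 451 against 467 and 405. Wild-type 1 was the low sample there, and the log2 fold change of 0.50 had an interval from -0.83 to 1.83. *Epha4*, which binds ephrins of both classes, and *Epha5* had log2 fold changes of 0.15 and 0.23.

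*Efna1* had 1152 and 1255 normalized counts in wild-type brain ECs against 1169 and 1764 in *Foxq1* cKO brain ECs. The groups overlapped, and the log2 fold change was 0.26 with an interval from -0.47 to 0.98. *Efna4* had 6.74 and 132 normalized counts in wild-type against 107 and 159, a log2 fold change of 2.03 with an interval from -1.46 to 5.52. The transmembrane ephrins *Efnb1* and *Efnb3* had log2 fold changes of 0.57 and -0.16. *Efnb3* had 102 and 196 normalized counts against 93.6 and 172, so each group spanned nearly the same range. *Ephb1* was the most uneven member, with 224 and 1.99 normalized counts in wild-type brain ECs (266 and 2 reads) against 89.3 and 74.3 in *Foxq1* cKO brain ECs. Its log2 fold change was 1.67 in limma and -0.47 in DESeq2 on the recovered reads. *Ephb2* overlapped between groups as well, from 10.2 to 74.8 normalized counts over the 4 samples.

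*Robo4* (ENSMUSG00000032125) is the Robo receptor best known from endothelial cells. It had 12384 and 14853 normalized counts in wild-type brain ECs against 15432 and 12465 in *Foxq1* cKO brain ECs. The groups lay on the same range, and the log2 fold change of 0.03 had a 95% interval from -0.36 to 0.43. *Robo1* and *Robo2* differed in order from *Robo4*. *Robo2* had 282 and 356 against 254 and 216, lower in both *Foxq1* cKO samples, with a log2 fold change of -0.44 (standard error 0.51). *Robo1* had 618 and 745 against 648 and 216, where *Foxq1* cKO 2 alone was low, and its log2 fold change was -0.86 (standard error 0.59). Without *Foxq1* cKO 1, which leaves that low sample as the only one of its group, its unadjusted p was 0.0363 in limma.

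The Slit ligands were low and uneven. *Slit2* had 304 and 284 normalized counts in wild-type brain ECs against 758 and 127 in *Foxq1* cKO brain ECs, so the *Foxq1* cKO samples lay on either side of the wild-type ones. *Slit1* had 8.43 and 156.5 in wild-type brain ECs and *Slit3* 8.43 and 78.8. Wild-type 1 was the low sample in both, and the log2 fold changes of the 3 Slits, 0.08, 0.96 and 0.80 for *Slit2*, *Slit1* and *Slit3*, had standard errors between 0.88 and 1.44. That of *Slit1* was -0.15 in DESeq2.

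Netrins are laminin-related secreted cues. *Ntn1* had 403 and 298 normalized counts in wild-type brain ECs against 228 and 187 in *Foxq1* cKO brain ECs. *Ntn3* had 38.8 and 39.9 against 2.18 and 13.2, the latter from 2 and 13 reads. Both were lower in both *Foxq1* cKO samples, with *Ntn1* at 59.2% and *Ntn3* at 19.6% of wild-type. The log2 fold changes were -0.74 (standard error 0.53, unadjusted p = 0.206) and -2.58 (standard error 1.17, unadjusted p = 0.0689) in limma. *Ntn3* passed an unadjusted 0.05 without the variance trend (0.0387) and under quantile normalization (0.0464). The repulsive netrin receptor *Unc5b*, known from endothelial tip cells, had 2032 and 932 against 850.2 and 1011. Wild-type 1 alone was high, and the groups overlapped. The log2 fold change of -0.57 (interval -1.59 to 0.45) was -0.01 without wild-type 1, and -1.13 with an unadjusted p of 0.0130 in limma without wild-type 2.

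**Figure D3:**
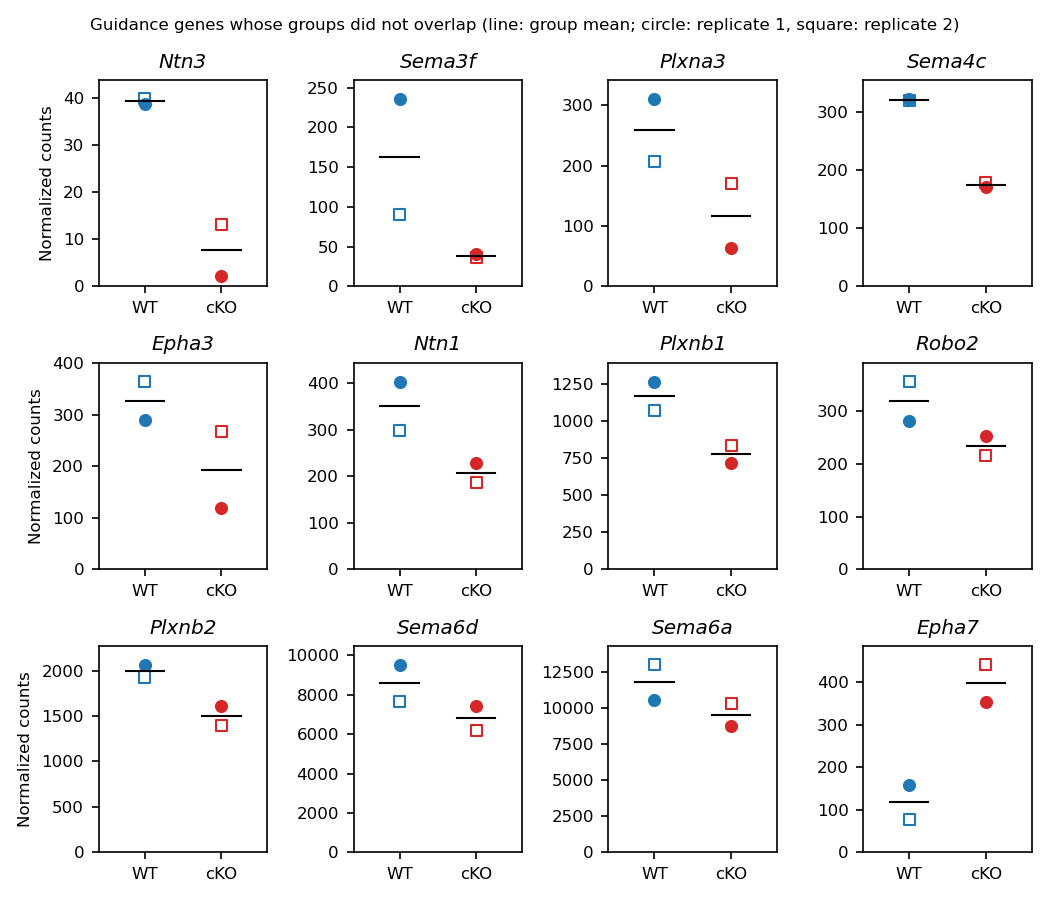
Normalized counts in each sample for the 12 guidance genes whose wild-type and *Foxq1* cKO samples did not overlap, on linear axes from 0, with horizontal lines at the group means of 2 samples. In 11 panels both *Foxq1* cKO samples lie below both wild-type samples, and in that of *Epha7* they lie above.

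The spread between replicates separated the strongly from the weakly expressed members. None of the 13 members with a mean of at least 500 normalized counts had replicates more than 4-fold apart in either group. Of the 28 members with a lower mean, 10 had wild-type samples and 4 had *Foxq1* cKO samples more than 4-fold apart. Over all 41 members these were 24.4% and 9.76%, against 10.9% and 6.52% of all genes tested. Of the 28 members with a mean under 500 they were 35.7% and 14.3%, against 20.2% and 12.7% of all genes with a mean under 500. The median standard error of the log2 fold change was 0.30 for the 13 stronger and 0.87 for the 28 weaker members. Over all genes it was 0.31 at a mean of at least 500 and 0.79 under 500, so this split by level was not particular to the members. In 9 members the exons overlap those of another annotated gene, by between 0.78% (*Plxna4*) and 10.7% (*Plxna1*) of the exon length. Strand use in counting is not given in the sources used here, so reads in those stretches cannot be assigned with certainty.

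**Figure D4:**
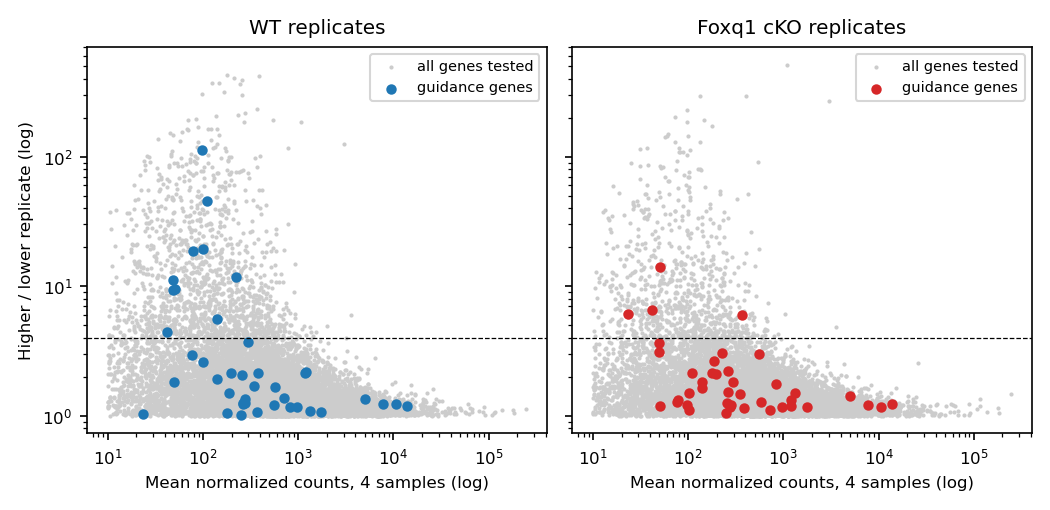
Ratio of the higher to the lower replicate against the mean normalized count, both on log axes, for wild-type (left) and *Foxq1* cKO samples (right). Gray points are all 12472 genes tested, colored points the 41 guidance genes and the dashed line a ratio of 4; guidance genes above the line number 10 in wild-type and 4 in *Foxq1* cKO samples.

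FOXQ1 is a forkhead transcription factor, and many forkhead factors bind the core TGTTTA. This generic core was searched. The paper reports that FOXQ1 prefers GTTTC at its binding sites near the start sites of *Adck1* and *Hap1*. That motif was not searched over all windows, so windows without the core may hold it. Of the windows printed below, those of *Robo4* and *Sema4d* hold GTTTC or its reverse complement GAAAC, and that of *Epha7* holds neither. How often these letters occur in other windows was not counted. Promoter windows from 250 bases before to 50 bases after the start site (RefSeq, GRCm38.p6) were found for 34 of the 41 members, some with several start sites. The core TGTTTA, or TAAACA on the other strand, was found in 1 of these 34 genes (2.94%), in 1 window of *Sema4d*, and in 10.3% of the listed genes and 15.1% of all genes with a window. The GC box GGGCGG or CCGCCC, a site of Sp1-type factors, was found in 25 of 34 (73.5%), against 69.7% of listed and 38.2% of all genes. The members' windows had a median GC content of 64.3%, against 60.7% in listed genes. Windows are shown for *Epha7*, the member with an unadjusted p under 0.05, for *Robo4*, the member at the highest level, and for the window of *Sema4d* with the core. Capitals mark either motif:
*Epha7*, chr4:28812881-28813180, plus strand: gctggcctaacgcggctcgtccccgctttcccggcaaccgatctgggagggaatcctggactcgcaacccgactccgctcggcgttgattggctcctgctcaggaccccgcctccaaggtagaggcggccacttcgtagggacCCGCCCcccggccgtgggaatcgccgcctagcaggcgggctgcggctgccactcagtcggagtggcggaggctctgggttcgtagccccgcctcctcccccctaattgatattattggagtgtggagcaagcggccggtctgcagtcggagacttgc
*Robo4*, chr9:37401722-37402021, plus strand: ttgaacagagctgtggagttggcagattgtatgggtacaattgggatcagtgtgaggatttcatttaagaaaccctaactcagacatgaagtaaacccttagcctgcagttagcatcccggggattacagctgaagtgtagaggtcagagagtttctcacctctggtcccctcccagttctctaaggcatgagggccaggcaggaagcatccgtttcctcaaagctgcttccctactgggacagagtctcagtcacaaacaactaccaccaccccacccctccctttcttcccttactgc
*Sema4d*, chr13:51756634-51756933, minus strand: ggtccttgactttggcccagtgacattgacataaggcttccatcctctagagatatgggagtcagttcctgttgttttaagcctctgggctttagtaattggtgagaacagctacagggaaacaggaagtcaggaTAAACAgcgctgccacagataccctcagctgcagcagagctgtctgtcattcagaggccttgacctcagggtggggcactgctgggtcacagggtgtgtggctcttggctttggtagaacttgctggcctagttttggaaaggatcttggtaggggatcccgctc
The *Epha7* window holds 1 GC box and no forkhead core, at 67.0% GC. The *Robo4* window holds neither of the searched motifs, at 50.3% GC. In *Sema4d* the match begins 115 bases before the start site. A match is a description of the letters in these windows, and other parts of the genes were not searched.

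Other genes of the pathway were taken from a list of co-receptors, modulators and cytoplasmic effectors, of which 78 were tested. In limma 1 of them was higher and 7 were lower at an unadjusted p under 0.05 (10.3% in all, against 5.22% of all genes), and none at an adjusted one. Both *Foxq1* cKO samples were below both wild-type samples in 21 of the 78 (26.9%) and above in 9 (11.5%), against 18% of all genes in each direction. The count of 8 changed with the sample left out, as did the number over all genes tested.

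Among the co-receptors, *Neo1* (neogenin, which binds netrins and repulsive guidance molecules) had 1009 and 563 normalized counts in wild-type brain ECs against 218 and 396 in *Foxq1* cKO brain ECs, a log2 fold change of -1.36 (standard error 0.52, unadjusted p = 0.0395 in limma). Its unadjusted p was 0.168 without wild-type 1 and 0.185 without *Foxq1* cKO 1. *L1cam*, an adhesion molecule that joins semaphorin receptors on axons, had 69.9 and 15.0 against 226 and 228, a log2 fold change of 2.76 (standard error 0.97, unadjusted p = 0.0283). *Erbb2*, a receptor kinase that associates with B-type plexins, had 763 and 446 against 269 and 225, a log2 fold change of -1.24 (unadjusted p = 0.0440). Without wild-type 1 the unadjusted p of *Erbb2* was 0.188, without *Foxq1* cKO 1 it was 0.0954 and without *Foxq1* cKO 2 0.149, and that of *L1cam* was 0.0588 without wild-type 2, 0.115 without *Foxq1* cKO 1 and 0.115 without *Foxq1* cKO 2. The neuropilin *Nrp1* had 9659 and 9421 against 8178 and 7148, with a log2 fold change of -0.32 and an unadjusted p of 0.0634. *Nrp2*, the co-receptor of *Sema3f*, had 822 and 2217 against 2322 and 1841, and its groups overlapped. The netrin receptor *Dcc* had 171 and 156 against 2.18 and 378, and its log2 fold change of -2.24 was 1.21 without *Foxq1* cKO 1.

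Of 60 effectors tested, 5 had an unadjusted p under 0.05 (8.33%), all lower in *Foxq1* cKO samples, against 5.22% of all genes in either direction and 3.05% lower. DESeq2 gave 3 of the 60, against 6.45% of all genes. The Rac exchange factor *Tiam1* had 2639 and 1824 normalized counts in wild-type brain ECs against 1269 and 879 in *Foxq1* cKO brain ECs (log2 fold change -1.05, standard error 0.31, unadjusted p = 0.0150). The tyrosine kinase *Abl1*, which acts below Robo receptors, had 2313 and 2209 against 1462 and 1225 (log2 fold change -0.76, standard error 0.23, unadjusted p = 0.0163). *Rras*, a GTPase inactivated by plexins, had 815 and 1035 against 533 and 442 (log2 fold change -0.92, unadjusted p = 0.0397). The actin-binding *Ablim1* and the filopodial myosin *Myo10* had smaller log2 fold changes of -0.28 and -0.29 with unadjusted p-values of 0.0402 and 0.0451. None of the 5 kept an unadjusted p under 0.05 in every fit that left out a sample. Without *Foxq1* cKO 2 the unadjusted p in limma was 0.0949 for *Tiam1*, 0.0970 for *Abl1*, 0.158 for *Rras*, 0.0554 for *Ablim1* and 0.117 for *Myo10*. Without wild-type 1 it was 0.0697 for *Tiam1* and 0.0513 for *Abl1*, and for *Rras* it was 0.139 without wild-type 2 and 0.0818 without *Foxq1* cKO 1. For *Ablim1* and *Myo10* it was over 0.05 whichever sample was left out, with a highest value of 0.176 and 0.146, both without *Foxq1* cKO 1. The arteriovenous genes outside the rule, *Sema3g*, *Efnb2* and *Ephb4*, had log2 fold changes of 0.30, 0.89 and -0.20, each with an interval that included 0. Both *Foxq1* cKO samples of *Efnb2* were above both wild-type samples.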

How the data were processed

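RNA-seq was done on 2 wild-type and 2 *Foxq1* cKO samples. The authors deposited a table of normalized counts per gene (unit: signal), that is, read counts divided by 1 size factor per sample. The submitters' processing notes name Bowtie2 2.2.3, TopHat2 2.0.12, HTSeq 0.6.0 and mm9. The annotation, strand setting and normalization tool are not given in the sources used here. The 1207361 lines of the table reduced to 12701 gene IDs and 12693 symbols, all with 1 read or more per sample. Low values were whole multiples of 1 step per sample (tolerance 0.01), which gave back the reads.

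The unit differed from raw counts, so the test was limma 3.58.1 with a variance trend on log2(normalized count + 1), over 12472 genes with a mean of at least 10, with Benjamini-Hochberg adjustment. The added 1 draws in the fold changes of low genes: the log2 value of *Ntn3* was -2.58, and -2.84 with 0.1 added. Against DESeq2, the limma values of low genes were larger for some and smaller for others. They were 2.03 against 0.94 for *Efna4*, -1.35 against -0.51 for *Sema4g* and -1.12 against -1.90 for *Sema4b*. DESeq2 1.42.0 and edgeR 4.0.16 served as alternatives, fitted to the recovered reads in R 4.3.3. Other alternatives were pseudocounts of 0.1 and 5, no filter, a mean of at least 50, quantile and TMM scaling, no variance trend, a replicate block and each sample left out. Where that left 1 sample in a group, it was assumed to vary like the other group. The procedure was tested on simulated data.

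Exon lengths and overlaps came from GENCODE M21 (GRCm38) by gene ID, with 12678 of 12701 IDs matched. That build is not mm9, so no gene coordinates are given, and promoter windows carry RefSeq GRCm38.p6 coordinates. Motifs were searched on both strands.

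The members and lists were chosen with earlier results of these data known. Per-sample values were set by rule for members with an unadjusted p under 0.05, for the highest member of each class per kb, and for the 10 largest changes without overlap at a mean of at least 50. Of other genes, the rule took *Foxq1*, *Nrp1*, *Nrp2*, *Dcc*, *Neo1* and partners with an unadjusted p under 0.05. Further members shown sample by sample were chosen after their values were seen.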

Additional observations from a re-analysis of the deposited data

How the results depend on the processing

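Across the 4 fits that each dropped a sample, genes with an unadjusted p under 0.05 numbered from 276 to 1569 over all genes (651 with all samples), from 0 to 7 over the guidance genes (1 with all samples) and from 3 to 12 over the pathway partners (8 with all samples). In these limma fits the adjusted count stayed at 0, while DESeq2 with all samples gave 59 over all genes. The guidance count was 2 under quantile normalization and 4 without the variance trend, where the genes were *Epha7*, *Ntn3*, *Sema3f* and *Sema4c*. Over all genes tested, 296 were called higher and 350 lower under quantile normalization, and 337 higher and 338 lower without the trend. Whether the replicate numbers pair the samples is not known. Deviations of same-numbered samples correlated at 0.03 across genes, and 2 pairs are too few to tell. A replicate block gave 693 genes in all, 1 guidance gene and 5 partners. In both count tools the sign turned for 5 of the 41 members, namely *Ephb1* (-0.47 in DESeq2 and -0.47 in edgeR), *Plxnc1*, *Slit1*, *Plxna4* and *Sema4a*, and for *Dcc* (0.22 in DESeq2 and 0.23 in edgeR). Leaving out 1 sample turned the sign of 26 of the 41 members in at least 1 fit. Among the genes of the naming rule these were *Efna1* (range -0.040 to 0.55), *Efnb3* (-0.63 to 0.31), *Epha2* (-0.051 to 1.05), *Ephb1* (-1.45 to 4.78), *Plxnd1* (-0.49 to 0.013), *Robo4* (-0.12 to 0.19), *Sema3c* (-0.41 to 0.36), *Slit2* (-1.20 to 1.36), and of the partners *Nrp2* (-0.10 to 1.33) and *Dcc* (-5.69 to 1.21). The cause was not tested. *Foxq1* ran from -5.66 to -3.28. Both *Foxq1* cKO samples were below both wild-type samples in 11 guidance genes under TMM scaling and in 10 under quantile normalization. The share of higher among the calls over all genes was 41.6% with all samples, 49.9% without the variance trend, 61.7% without wild-type 1, 62.7% without wild-type 2, 23.9% without *Foxq1* cKO 1 and 22.0% without *Foxq1* cKO 2. At these depths the lowest members rest on as few as 2 reads in a sample, and counts cover counting error only.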
